A study of Mus musculus with 47 samples.

Results

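A set of 10 genes that mark megakaryocytes and platelets was followed through 47 libraries of embryonic liver, lung and brain: Pf4, Ppbp, Itga2b, Itgb3, Gp1ba, Gp1bb, Gp5, Gp6, Gp9 and Treml1. They were taken by gene symbol from the 20456 genes of the count table, and all 10 were among the 16892 genes that passed the filter on low counts. The embryos were taken at E18.5 and are labelled C57BL/6. Mutants were homozygous for 1 of 2 Daxx knock-in alleles made by CRISPR in C57BL/6N zygotes and backcrossed to C57BL/6J, S226A/S226A, which breaks the contact of Daxx with the histone H3.3, or Y130A/Y130A, which breaks its contact with Atrx. Daxx is the chaperone that brings H3.3 to heterochromatin. Each mutant was set against wild-type embryos of its own litters, giving 12 groups of 4 libraries, apart from 3 libraries of wild-type lung beside Y130A, so that the Y130A lung of litter 3069 had no wild-type littermate. A library comes from 1 organ of 1 embryo, and most embryos gave a liver, a lung and a brain library. The labels name no treatment in any group.

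Megakaryocytes are the large bone marrow and fetal liver cells that shed platelets into the blood. The fetal liver is the main site of blood formation before birth, while lung and brain receive platelets through their vessels. Platelets stick to damaged vessels through von Willebrand factor, which the GPIb-IX-V complex binds, and through collagen, which the receptor GPVI binds. They then clump through integrin αIIbβ3, which holds fibrinogen, and release chemokines from their alpha granules. Pf4 and Ppbp encode the chemokines. Itga2b and Itgb3 encode the 2 chains of the integrin, and Itgb3 also pairs with other alpha chains on other cells. Gp1ba, Gp1bb, Gp9 and Gp5 encode the 4 subunits of the von Willebrand factor receptor, Gp6 encodes the collagen receptor, and Treml1 encodes a granule receptor that reaches the surface on activation. In whole organs, fewer cells of a type and less RNA per cell cannot be told apart.

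The genes lie on 6 chromosomes (positions in GRCm38, GENCODE M21). Pf4 (chr5:90772435-90773383, plus strand) and Ppbp (chr5:90768518-90770063, plus strand) are neighbours with 2371 bases between them. Itga2b (chr11:102453297-102470122, minus strand), Itgb3 (chr11:104608000-104670476, plus strand) and Gp1ba (chr11:70639122-70642036, plus strand) share a chromosome. Gp5 (chr16:30307685-30310779, minus strand), Gp6 (chr7:4363965-4397744, minus strand), Gp9 (chr6:87778072-87779768, plus strand) and Treml1 (chr17:48359916-48367176, plus strand) are spread over others, and Treml1 is on the chromosome of Daxx. Gp1bb (chr16:18620317-18622403, minus strand) is the member whose count cannot be read as its own level, as described further on. The other 9 members share no exonic base with another gene in the annotation.

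Promoter windows of 9 members were found in RefSeq (GRCm38.p6), as the 250 bases before the gene start that RefSeq gives. That start is within a few bases of the position printed above for 8 of them, while for Itga2b it lies inside the printed gene, as do both of its AGGAAG matches. The windows were searched on both strands for GATAA, the core bound by GATA factors, AGGAAG, an ETS core, and TGAGTCA, the core bound by NF-E2. These factors are known drivers of megakaryocyte genes. GATAA was in 4 of 9 member windows and in 22.6% of the 32851 windows in the table, AGGAAG in 5 of 9 and in 29.5%, both in 3 of 9 and in 6.58%, and TGAGTCA in 0 of 9 and in 4.46%. GATAA and AGGAAG did not overlap in any member window. The 3 windows with both belong to 3 subunits of the von Willebrand factor receptor, Gp9, Gp1ba and Gp5, and are printed because the products of these 3 genes sit in 1 protein complex. The window of Gp1bb, the remaining subunit, held neither core, nor did those of Ppbp and Treml1. Capitals mark both cores on either strand, 5′ to 3′ toward the gene start at the right.
Gp9 (chr6:87777820-87778069, plus strand): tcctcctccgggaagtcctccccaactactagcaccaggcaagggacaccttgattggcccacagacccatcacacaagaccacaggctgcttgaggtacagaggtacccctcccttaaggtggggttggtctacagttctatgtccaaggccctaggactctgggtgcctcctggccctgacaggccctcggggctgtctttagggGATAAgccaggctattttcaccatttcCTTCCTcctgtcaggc
Gp1ba (chr11:70638872-70639121, plus strand): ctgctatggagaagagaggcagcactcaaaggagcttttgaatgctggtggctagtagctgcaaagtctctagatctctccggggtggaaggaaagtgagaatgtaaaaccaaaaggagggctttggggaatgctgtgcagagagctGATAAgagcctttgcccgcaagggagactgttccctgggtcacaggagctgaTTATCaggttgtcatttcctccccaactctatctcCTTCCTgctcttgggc
Gp5 (chr16:30310782-30311031, minus strand): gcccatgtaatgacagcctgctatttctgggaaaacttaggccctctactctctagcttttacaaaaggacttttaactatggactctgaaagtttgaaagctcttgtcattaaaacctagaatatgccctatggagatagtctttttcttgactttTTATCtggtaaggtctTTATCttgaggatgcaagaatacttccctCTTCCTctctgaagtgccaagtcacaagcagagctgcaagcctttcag
The AGGAAG match of Gp9 and that of Gp1ba both lie 11 to 16 bases before the start, and that of Gp5 lies 43 to 48 bases before it. The GATAA match closest to the start is 39 to 43 bases away in Gp9, 47 to 51 in Gp1ba and 73 to 77 in Gp5. A match of letters is a description, not a measured binding site.

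The libraries held 15722147 to 26190403 counted reads in the S226A litters and 36351738 to 54885020 in the Y130A litters. Levels are given as CPM, which are counts relative to library size, with the sizes scaled by TMM, a method that aligns the bulk of genes between libraries. Organs matched their labels. Hepatocyte markers summed to 140000 CPM or more in every liver and to 1200 or less elsewhere, lung epithelium markers to 5840 or more in every lung and to 18.3 or less elsewhere, and neuron markers to 3580 or more in every brain and to 23.6 or less elsewhere. A wild-type liver of the S226A litters and a Y130A liver held squamous epithelium transcripts (1062 and 702.5 CPM summed, against at most 10.4 in the other livers), and leaving both out changed no call on a member. Daxx itself was at 36.8 to 50.9 CPM in wild-type and 34.9 to 43.5 CPM in S226A livers, and at 34.5 to 43.7 CPM in wild-type and 37.1 to 43.6 CPM in Y130A livers. A changed codon is not visible in a gene count, so these values do not check the genotype. They are RNA and do not give the protein level. By western blot of embryonic fibroblasts and E18.5 lung, the paper reports more Daxx protein in Y130A and less in S226A than in wild type, most clearly in the fibroblasts.

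In wild-type embryos, 9 of the 10 genes followed 1 order of tissues: liver above lung, and lung above brain. Pf4 had 37.9 to 61.0 CPM in the 8 livers (median 57.6), 6.16 to 8.63 in the 7 lungs (median 6.74) and 2.99 to 4.37 in the 8 brains (median 3.76). Ppbp had 47.8 to 81.5 CPM in liver, 0.853 to 2.77 in lung and 0.037 to 0.211 in brain. Every liver was thus above every lung, and every lung above every brain, for both chemokines. Itga2b had 81.7 to 112 CPM in liver, 8.27 to 14.6 in lung and 1.77 to 2.68 in brain. Itgb3 had 138 to 197 CPM in liver, 16.4 to 27.1 in lung and 2.70 to 4.89 in brain. The 2 integrin chains, which must pair to reach the surface, thus kept to the same order without overlap.

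The subunits of the von Willebrand factor receptor and the remaining receptors followed the same order. Gp5 had 10.6 to 16.8 CPM in liver, 0.853 to 3.29 in lung and 0.240 to 0.704 in brain. Gp9 had 8.74 to 15.3 CPM in liver, 0.651 to 1.73 in lung and 0 to 0.185 in brain. Treml1 had 12.7 to 19.1 CPM in liver, 0.449 to 1.59 in lung and 0 to 0.125 in brain. None of the 3 overlapped between neighbouring tissues. Gp1ba had 3.94 to 20.05 CPM in liver and 0.0204 to 1.21 in lung, with 2 reads in all in the 8 brains. Gp6 had 7.68 to 12.4 CPM in liver and 0.384 to 1.57 in lung, with 3 reads in all in the 8 brains. Gp1ba overlapped between lung and brain, because 1 wild-type lung of the Y130A litters held a single read. No fold over brain is given for Gp1ba and Gp6, whose brain reads are at the level of counting error.

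By edgeR's quasi-likelihood test with Benjamini-Hochberg adjustment over all genes, 9 of 10 members were higher in liver than in lung, where 37.8% of all tested genes were higher. The same 9 were higher in liver than in brain (41.8% of all genes) and in lung than in brain (41.3%). These 3 comparisons share their libraries, and the tissues come mostly from the same embryos, which the fit treats as independent libraries. Every liver was above every lung for 9 members (23.7% of all genes) and above every brain for the same 9 (32.4%). No such share is given for lung over brain, so the lack of overlap between those tissues has no background to be read against. Liver over lung, Pf4 was 7.63-fold higher (95% interval 6.53 to 8.92, adjusted p = 1.29e-25), Itga2b 9.28-fold (8.12 to 10.6), Itgb3 8.51-fold (7.43 to 9.74) and Ppbp 37.4-fold (29.0 to 48.1, adjusted p = 4.57e-27). Ppbp therefore fell off between liver and lung by more than Pf4, and their intervals do not touch. Lung over brain, Pf4 was 1.87-fold higher (1.61 to 2.18), Gp5 3.28-fold (2.32 to 4.65), Itga2b 4.82-fold (4.20 to 5.53), Itgb3 5.50-fold (4.79 to 6.32) and Ppbp 19.1-fold (13 to 28.2). As a share of the mean liver level, lung ran from 2.70% for Ppbp to 13.2% for Pf4 over the 9 members other than Gp1bb. Brain ran from 0.131% for Ppbp to 6.96% for Pf4, leaving out Gp1bb and also Gp1ba and Gp6, which had at most 3 brain reads.

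Per length, which is needed to set genes against each other, the order in wild-type liver was Pf4 (74.0 CPM per kilobase of exon), Ppbp (63.0), Itgb3 (28.5), Itga2b (18), Gp9 (14.0), Treml1 (11.4), Gp5 (6.34), Gp1ba (3.59) and Gp6 (1.69). The secreted chemokines thus headed the list and the collagen receptor closed it. In lung Pf4 still led (9.79 CPM per kilobase), now followed by Itgb3 (3.42), Itga2b (1.98) and Ppbp (1.70). In brain Pf4 was at 5.15 CPM per kilobase, above Itgb3 (0.605) and Itga2b (0.403).

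**Figure D1:**
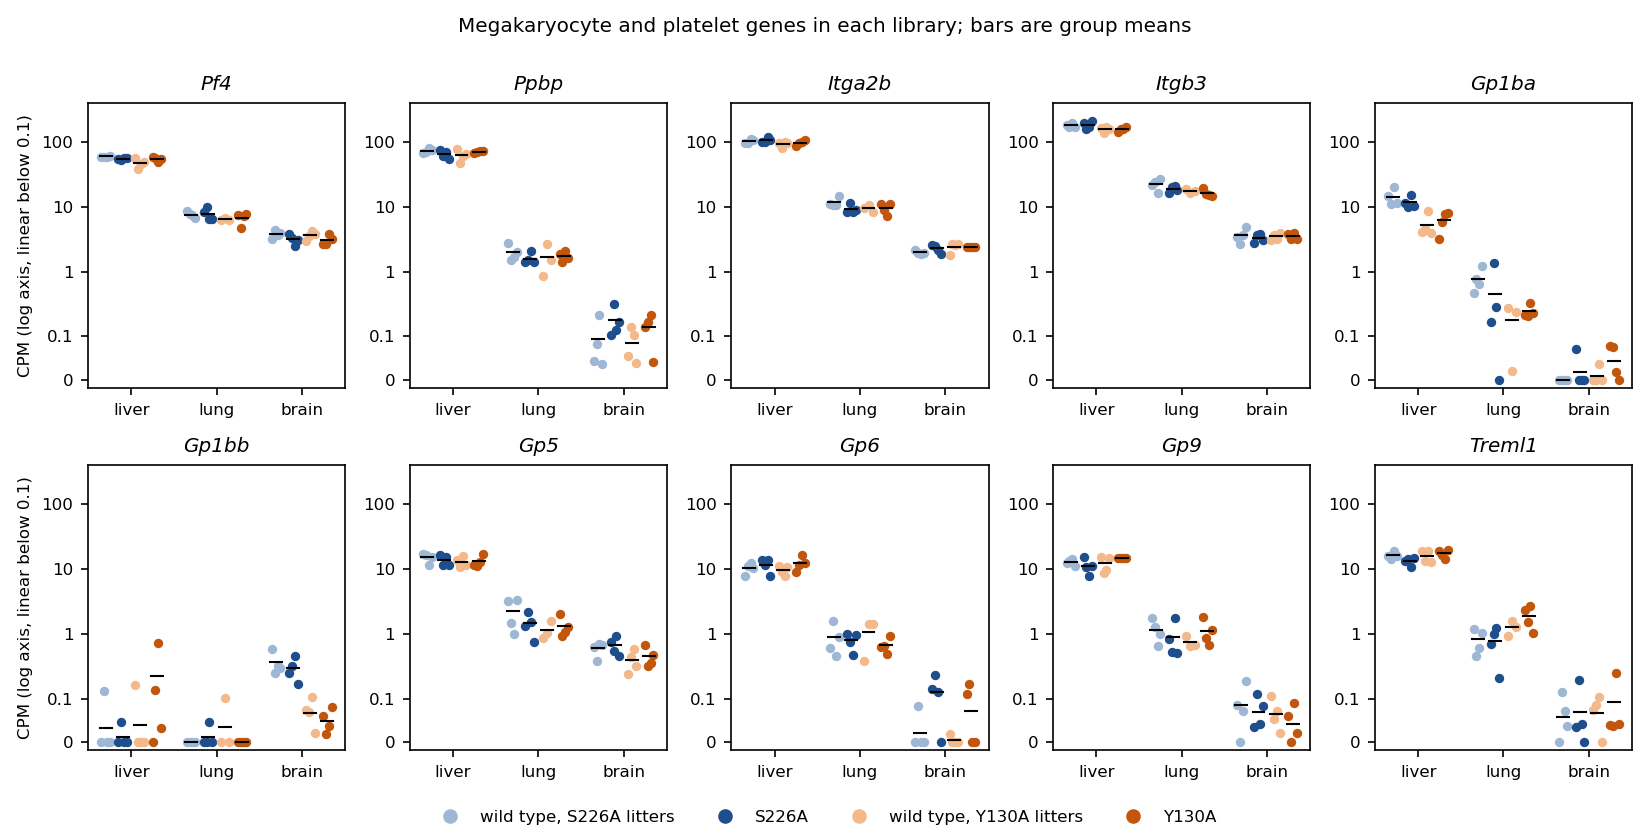
CPM of the 10 genes in each of the 47 libraries by tissue, with points for libraries, colours for genotype and litter set, and bars for group means; the axis is logarithmic above 0.1 CPM and linear below it. Except for Gp1bb, every gene steps down from liver to lung to brain, and within a tissue the mutant and wild-type points lie among each other for most genes.

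The share of chemokine reads that fell on Pf4 differed between tissues. Pf4 made up 40.4% to 51.0% of the reads on Pf4 and Ppbp together in the 16 livers, 71.8% to 87.9% in the 15 lungs and 91.4% to 99.1% in the 16 brains. The 3 ranges do not overlap. Within brain, where Ppbp had 1 to 12 reads a library, the share was lower in the mutant of 4 of 4 Y130A litters and of 3 of 4 S226A litters. The share does not correct for length, and per kilobase Pf4 was above Ppbp in all 3 wild-type tissues. It was picked after its values were seen and has no test. Pf4 is also known from macrophages of the brain's borders, and the 6 markers of those cells summed to 78.1 to 97.2 CPM in wild-type brains of the S226A litters, 763 to 1020 CPM in the lungs and 574 to 661 CPM in the livers of the same litters. All 6 had reads in every group, and their part in the Pf4 share was not tested.

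**Figure D2:**
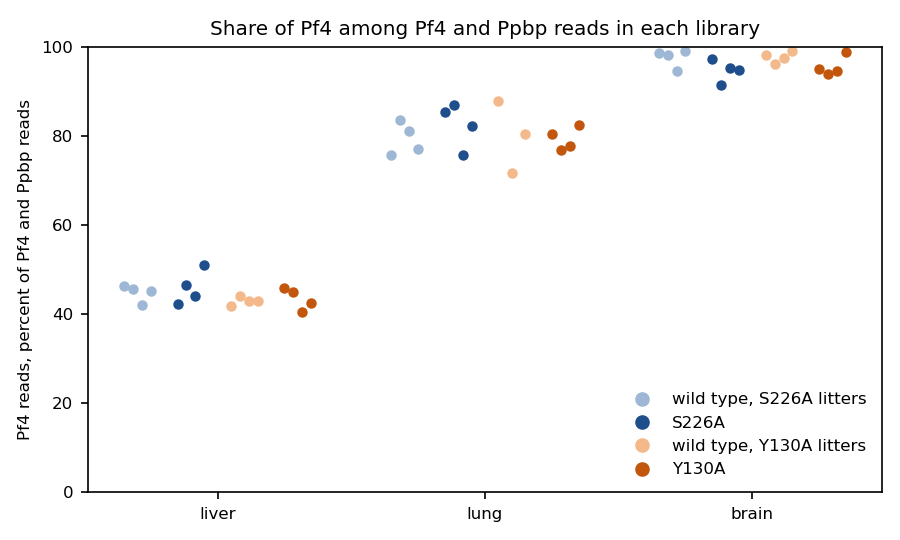
Reads on Pf4 as a percent of the reads on Pf4 and Ppbp together, 1 point per library, by tissue and coloured by group. Livers lie between 40.4% and 51.0%, lungs between 71.8% and 87.9% and brains between 91.4% and 99.1%.

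Gp1bb had few reads in any liver, at 0.0174 CPM per kilobase in wild type, far below the other subunits of its complex. Among the 16 livers it had 0 reads in 10 and at most 6 in all but 1, a Y130A liver with 20, while brains had 1 to 14. The annotation gives Gp1bb a single merged exon of 2087 bases, of which 1938 (92.9%) are also exons of Sept5, which encodes a septin that is abundant in neurons, or of Gm49601, a gene that overlaps both, on the same strand. Only chr16:18620317-18620465, 149 bases, belong to Gp1bb alone. Sept5 was at 38.9 to 49.3 CPM in wild-type brain and at 0.790 to 1.47 CPM in wild-type liver of the S226A litters. In S226A liver, Sept5 rose to 2.54 to 5.14 CPM (log2 fold change 1.75, SE 0.28, adjusted p = 1.14e-05) and Gm49601 rose from 0 to 0.329 CPM to 0.527 to 2.45 CPM (adjusted p = 2.02e-04). Reads on the shared bases cannot be assigned to 1 of the 3 genes by position, so the Gp1bb count is not taken as its level and its results are left out of the medians and counts of direction below.

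In S226A liver, where 11.7% of all tested genes passed an adjusted p below 0.05, 0 of the 10 genes did, by edgeR and by DESeq2. An unadjusted p below 0.05 in edgeR occurred for 0 of the 10 and for 4170 of all 16892 genes. The median log2 fold change of the 9 members other than Gp1bb was -0.14, against -0.01 over all tested genes. Pf4 had 58.8, 59.2, 59.3 and 61.0 CPM in the 4 wild-type livers and 53.8, 52.8, 55.8 and 55.9 CPM in the 4 S226A livers. Every S226A liver was below every wild-type liver for Pf4, as for 5.18% of all genes, and the mutant was the lower embryo in 4 of 4 litters. The difference was small, with a fold of 0.916 (95% interval 0.758 to 1.11), a log2 fold change of -0.13 (SE 0.14) and an adjusted p of 0.632 in edgeR.

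Ppbp had 67.9, 70.3, 81.5 and 74.0 CPM in wild-type and 73.8, 60.7, 70.4 and 53.7 CPM in S226A liver. The groups overlap, with a fold of 0.880 (0.676 to 1.15). Itga2b had 97.4, 96.1, 112.5 and 107.6 CPM in wild-type and 100.8, 98.4, 117.0 and 108.0 CPM in S226A liver. It was higher in the mutant of each of the 4 litters by little, with a fold of 1.03 (0.874 to 1.2). Itgb3 had 182, 172, 197 and 169 CPM in wild-type and 192, 156, 172 and 207 CPM in S226A liver, with a fold of 1.01 (0.857 to 1.19). Groups overlap for both chains of the integrin, and their intervals were the narrowest of the 10 genes.

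The receptor subunits were less precise. Gp1ba had 14.7, 10.8, 20.1 and 11.3 CPM in wild-type and 11.6, 9.84, 14.9 and 10.2 CPM in S226A liver, lower in the mutant of 4 of 4 litters, with a fold of 0.818 and an interval of 0.419 to 1.6. Gp9 had 12.2, 13.1, 13.9 and 11.2 CPM in wild-type and 15.5, 10.5, 7.80 and 10.9 CPM in S226A liver (fold 0.885, 0.569 to 1.38). Treml1 had 15.8, 14.1, 19.1 and 15.8 CPM in wild-type and 12.97, 14.4, 10.6 and 14.7 CPM in S226A liver (fold 0.814, 0.51 to 1.3). Wild-type and mutant libraries overlap for all 3. Gp5 (fold 0.907, 0.610 to 1.35) and Gp6 (1.12, 0.658 to 1.92) overlapped too.

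Markers of other lineages moved in the same livers. The 7 neutrophil markers summed to 2950 to 3530 CPM in wild-type and 8600 to 9250 CPM in S226A livers, and 7 of 7 rose. The 7 Kupffer cell markers summed to 369 to 501 CPM and to 86.8 to 161 CPM, and 6 of 7 fell. Clec4f, the defining Kupffer cell lectin, was at 93.6 to 155 CPM in wild-type and at 0.133 to 0.739 CPM in S226A livers. Microglia markers, several of which other macrophages share, went from 373 to 416 CPM to 141 to 177 CPM with 3 of 6 lower, border macrophage markers from 574 to 661 CPM to 352 to 499 CPM with 2 of 6 lower, and endothelial markers from 407 to 452 CPM to 316 to 380 CPM with 2 of 7 lower. Of 6 erythroid markers tested, 0 passed and all 6 estimates were below 0 (4520 to 5760 CPM in wild-type, 4220 to 4720 in S226A). The part of these cells in any value of the platelet genes was not tested.

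**Figure D3:**
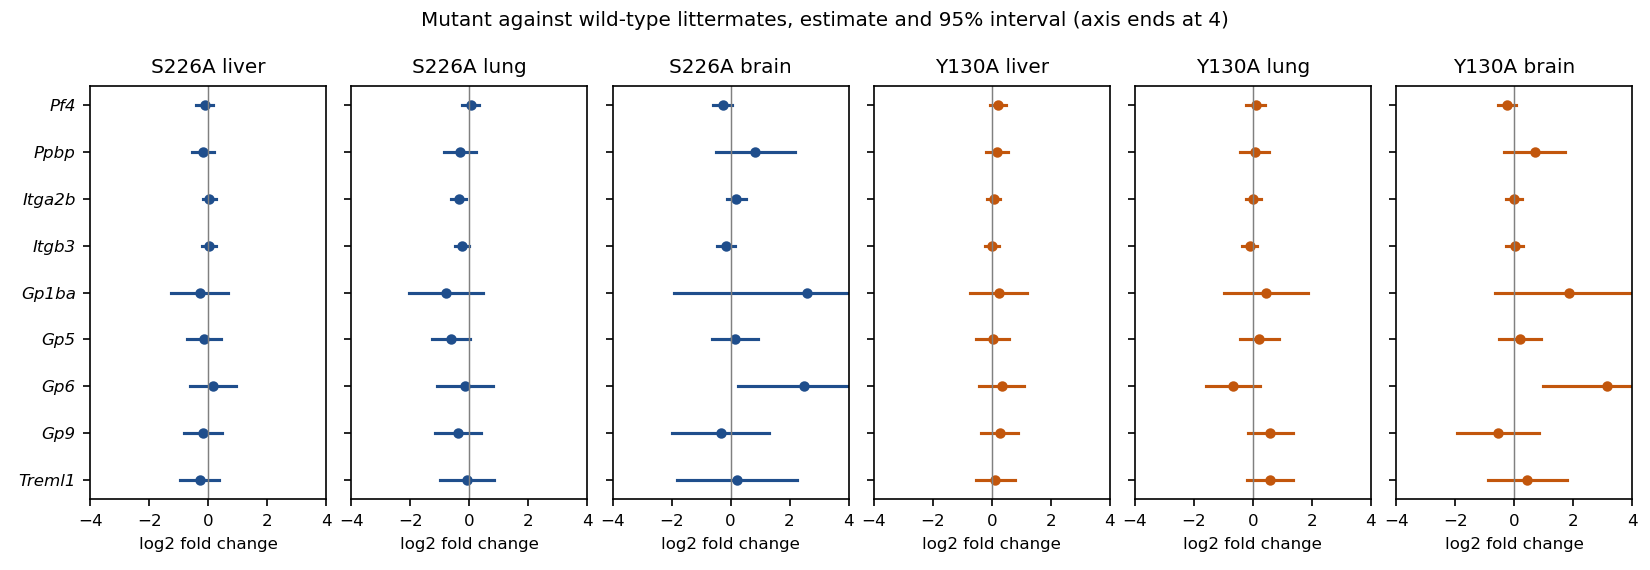
Log2 fold change of each gene except Gp1bb in mutant over wild-type littermates in 6 comparisons, with points for the estimate and lines for the 95% interval, on an axis that ends at 4 in both directions. Intervals are narrow around 0 for Pf4, Itga2b and Itgb3 in liver and widest in brain, where Gp1ba, Gp6, Gp9 and Treml1 had few reads.

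A further 49 genes in 6 chosen lists cover other parts of megakaryocyte and platelet biology. In S226A liver, 9 of the 49 rose and 2 fell, against 6.14% and 5.54% of all genes, with a median log2 fold change of 0.07. Among alpha granule genes 4 of 8 rose. F13a1, which encodes the A chain of the clotting factor that cross-links fibrin, went from 54.1 to 74.8 CPM in wild-type to 149 to 168 CPM in S226A livers (log2 fold change 1.25, SE 0.12, adjusted p = 1.31e-10 in edgeR). Nbeal2, needed for granule formation, went from 53.4 to 67.1 CPM to 83.1 to 108 CPM (adjusted p = 4.36e-04), and Srgn, the proteoglycan that packs granules, from 32.2 to 43.5 CPM to 57.5 to 68.9 CPM (adjusted p = 8.52e-04). None of these 3 overlapped between groups, and of all 49, 13 had every S226A liver higher and 2 had every S226A liver lower. The share of all genes with every S226A liver higher is not given here, so the 13 have no background to be read against. Of the platelet cytoskeleton list 3 of 6 rose, among them Flna, the filamin that anchors the GPIb complex to actin (log2 fold change 0.63, adjusted p = 4.27e-07), and Myh9, a nonmuscle myosin (0.51, adjusted p = 1.52e-05). Of the receptor and signalling list 1 of 15 rose, Plcg2, the phospholipase behind GPVI (0.76, adjusted p = 1.23e-05).

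With stringent criteria (adjusted p below 0.01, log2 fold change beyond 1, standard error below 1), which 2.1% of all genes met, 1 of the 49 was left, F13a1. The genes that rose in liver are not limited to platelets. F13a1, Srgn, Flna, Myh9 and Plcg2 are also expressed by myeloid cells, and the neutrophil marker sums given above rose in the same livers, a link that was not tested. Among the genes that make the lineage, the transcription factors gave 1 of 10 higher (Etv6) and 1 lower, Tal1, a regulator of blood cell formation that went from 181 to 234 CPM to 149 to 203 CPM (log2 fold change -0.34, SE 0.10, adjusted p = 0.0183). Gata1, the lead factor of megakaryocytes and red cells, had 56.8 to 83.7 CPM in wild-type and 45.8 to 77.9 CPM in S226A livers (fold 0.791, 0.578 to 1.08, adjusted p = 0.376). Of thrombopoietin signalling 0 of 6 passed. Tbxas1, thromboxane synthase, was the 1 of 4 eicosanoid genes that fell (-0.53, adjusted p = 0.0226). Clec1b, the platelet podoplanin receptor, which Kupffer cells also express, had 28.7 to 33.7 CPM in wild-type and 15.4 to 22.8 CPM in S226A livers without overlap (fold 0.615, 0.431 to 0.878, adjusted p = 0.0654). Clec1b, Etv6, Tal1, Gata1 and Tbxas1 were named after their values were seen.

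**Figure D4:**
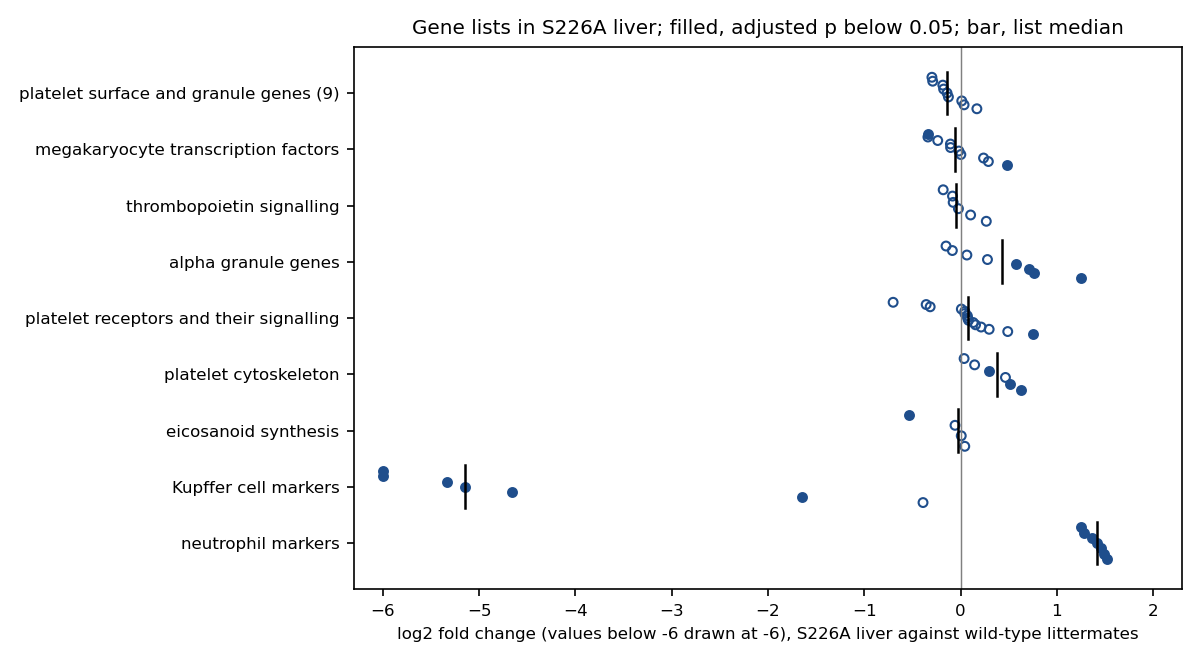
Log2 fold change in S226A liver over wild-type littermates for 9 platelet genes, 6 further megakaryocyte and platelet lists and 2 marker lists; each point is a gene, filled where the adjusted p was below 0.05, and the bar is the list median; values below -6 are drawn at -6. The platelet genes lie near 0 with no filled point, while 6 of 7 Kupffer cell markers are filled to the left of 0 and 7 of 7 neutrophil markers to the right.

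In S226A lung, 0 of 10 members passed, against 1.88% of all genes, by edgeR and by DESeq2. An unadjusted p below 0.05 in edgeR occurred for 1 of the 10 and for 2741 of all 16892 genes. Leaving out Gp1bb, estimates were below 0 for 8 of 9, with a median log2 fold change of -0.32 against 0.00 over all genes. Itga2b had 11.02, 10.8, 10.7 and 14.6 CPM in wild-type and 8.16, 11.3, 8.43 and 8.80 CPM in S226A lung. All S226A lungs but 1 were below all wild-type lungs and that of litter 2881 lay among them. The fold was 0.781 (0.655 to 0.931), with a log2 fold change of -0.36 (SE 0.13), an unadjusted p of 0.0069 and an adjusted p of 0.131 in edgeR. Itgb3 had 21.6, 23.7, 16.4 and 27.1 CPM in wild-type and 16.04, 19.9, 20.5 and 18.1 CPM in S226A lung (fold 0.840, 0.705 to 1.0). Groups overlap for the second integrin chain too. Pf4 had 8.63, 7.64, 7.36 and 6.68 CPM in wild-type and 8.29, 10.02, 6.38 and 6.49 CPM in S226A lung, with overlap and a fold of 1.03 (0.834 to 1.26). Gp5 had 3.14, 1.44, 1.002 and 3.29 CPM in wild-type and 1.32, 2.14, 1.54 and 0.744 CPM in S226A lung (fold 0.647, 0.41 to 1.02). The wild-type lung of litter 2970, at 14.6 CPM for Itga2b, was the highest of its group in 4 of 9 members. It summed to 57.68 CPM over them, against 39.52 to 51.15 CPM in the other wild-type lungs of the S226A litters. Its label is the nearest to that of a possible outlier the paper names in S226A lung. How far the lower estimates rest on this library is not given here. No member was called in S226A lung with any 1 library left out.

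Of the 49 further genes, 5 fell in S226A lung and 0 rose, against 1.02% and 0.852% of all genes. Plcg2 went from 18.8 to 25.3 CPM to 10.9 to 16.4 CPM (adjusted p = 0.00165), Lcp2, the adaptor SLP-76 beside it in GPVI signalling, from 7.67 to 11.2 CPM to 3.68 to 6.61 CPM (adjusted p = 0.00262), and Bin2 from 7.11 to 10.3 CPM to 3.77 to 5.45 CPM (adjusted p = 0.00367). Fermt3, kindlin-3, which switches on platelet integrins, went from 15.7 to 22.7 CPM to 12.3 to 14.0 CPM (adjusted p = 0.00845), and Actn1, an actin crosslinker, from 155 to 254 CPM to 150 to 166 CPM (adjusted p = 0.0394). None of the 5 met the stringent criteria, which 0.302% of all genes did. Plcg2 and Actn1 rose in S226A liver, Actn1 from 121 to 136 CPM to 150 to 166 CPM (log2 fold change 0.29, adjusted p = 0.0286 in edgeR), and fell in S226A lung, where the Actn1 libraries overlap between groups. Plcg2, Lcp2, Bin2 and Fermt3 are also expressed by leukocytes, and microglia markers, several of which lung macrophages share, summed to 134 to 157 CPM in wild-type and 93.8 to 101 CPM in S226A lungs, with 2 of 6 called lower. Neutrophil markers went the other way in the same lungs, from 32.1 to 75.9 CPM summed in wild type to 127 to 179 CPM in S226A, with 4 of 7 called higher. The other macrophage lists did not fall as a whole. Border macrophage markers summed to 763 to 1020 CPM in wild-type and 889 to 982 CPM in S226A lungs, with 0 of 6 called. Of 7 Kupffer cell markers, 2 were called higher and 1 lower. The part of these cells was not tested. The count of 5 depended on the fit and on single libraries. It was 0 of 44 when only the libraries compared were fitted, and became 8 without the wild-type lung of litter 2972 and 13 (3 higher, 10 lower) without that of litter 2881.

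In S226A brain, 0 of 10 members passed (0.243% of all genes), by both tools. An unadjusted p below 0.05 in edgeR occurred for 1 of the 10 and for 383 of all 16892 genes. The filter on low counts ran over all tissues, and within the brain libraries of either mutant comparison 4 of the 10 passed it, so the count of 0 says little about the other 6. The gene with the low p was Gp6, with 0, 2, 0 and 0 reads in wild-type and 4, 6, 3 and 0 reads in S226A brains. Pf4, the member with the most RNA per length in brain, had 3.20, 4.37, 3.66 and 4.00 CPM in wild-type and 3.74, 3.32, 2.47 and 3.06 CPM in S226A brain (log2 fold change -0.27, SE 0.16, adjusted p = 1.0). The groups overlap. Of the further 49 genes 1 fell, against 0.184% of all genes. It was P2ry12, the platelet ADP receptor that also marks microglia, which went from 2.48 to 4.4 CPM to 0.546 to 1.00 CPM (log2 fold change -2.16, adjusted p = 1.23e-04). Microglia markers summed to 86.5 to 95.5 CPM in wild-type and 48.0 to 52.5 CPM in S226A brains, and 4 of 6 fell.

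In Y130A embryos, 0 of 10 members passed in liver (0.272% of all genes), lung (0.0178%) or brain (0.00592%), by edgeR and by DESeq2. Filtered within the libraries compared, 9 members passed the filter in liver, 9 in lung and 4 in brain. An unadjusted p below 0.05 occurred once in each tissue, for Gp1bb in liver and lung and for Gp6 in brain, all on few reads. Over all 16892 genes it occurred for 1558 in liver, 493 in lung and 375 in brain. In liver the estimates of the 9 members other than Gp1bb were above 0, with a median log2 fold change of 0.17 against 0.00 over all genes. Pf4 had 57.5, 57.2, 49.4 and 53.7 CPM in Y130A and 56.5, 37.9, 45.3 and 49.3 CPM in wild-type liver, each mutant above its own littermate, with a fold of 1.15 (0.955 to 1.39, adjusted p = 0.750). Ppbp had 68.2, 70.2, 73.0 and 72.3 CPM in Y130A and 78.3, 47.8, 60.3 and 65.7 CPM in wild-type liver (fold 1.12, 0.867 to 1.46). Groups overlap for both, and the wild-type libraries spread wider than the mutant ones.

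In each group of the Y130A liver comparison 1 liver was often the lowest. The wild-type liver of litter 2974 was the lowest of its group in 6 of 9 members and summed to 351.8 CPM over them, against 418.8 to 457.1 CPM in the other 3. The Y130A liver of litter 2848 was also the lowest of its group in 6 of 9 and summed to 412.0 CPM, against 444.5 to 472.4 CPM in the other 3. It is the Y130A liver that held squamous epithelium transcripts (702.5 CPM summed), a link that was not tested. Itgb3 (fold 1.01, 0.858 to 1.19), Gp5 (1.02, 0.690 to 1.51) and Itga2b (1.05, 0.892 to 1.23) had the folds nearest 1. In lung, Pf4 had 7.55, 4.71, 7.14 and 7.67 CPM in Y130A and 6.20, 6.74 and 6.16 CPM in wild type (fold 1.06, 0.859 to 1.32). In brain, Pf4 had 2.64, 2.64, 3.79 and 3.21 CPM in Y130A and 2.99, 3.51, 4.15 and 3.85 CPM in wild type. It was lower in the mutant of 4 of 4 litters (fold 0.847, 0.690 to 1.04). Ppbp was higher in the mutant of 4 of 4 litters (fold 1.63, 0.798 to 3.31), on 2 to 12 reads a library. Both brains of litter 3069 held 2 Ppbp reads, so the order there rests on library size. Neither gene passed the test. Gp6 had 6, 9, 0 and 0 reads in the 4 Y130A brains and 1, 0, 0 and 0 in the 4 wild-type brains. Of the 49 further genes, 0 passed in any Y130A tissue, with 0, 0 and 1 at an unadjusted p below 0.05 in liver, lung and brain.

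The effects of the 2 mutants were also set against each other. For the members, 0 of 10 differed in liver (5.9% of all genes), lung (0.308%) or brain (0.0829%), with 0, 1 and 0 at an unadjusted p below 0.05 in edgeR and 0 called by DESeq2. In liver the S226A effect over the Y130A effect was 0.795 for Pf4 (0.609 to 1.04), 0.782 for Ppbp (0.540 to 1.13), 0.981 for Itga2b (0.783 to 1.23) and 0.999 for Itgb3 (0.794 to 1.26). Of the 49 further genes 6 did differ in liver. They were F13a1, Flna, Myh9, Plcg2, Etv6 and Nbeal2, with adjusted p from 3.85e-07 for F13a1 to 0.0133 for Nbeal2, and the S226A effect was the higher one for each.

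In a comparison of the wild-type embryos of the 2 sets of litters, added after the values were seen, 1 of 10 members passed in liver, where 13.1% of all genes did, and 2 of 10 in lung, where 20.1% did, which are shares near the background. Gp1ba had 10.8 to 20.1 CPM in the wild-type livers of the S226A litters and 3.94 to 8.66 CPM in those of the Y130A litters (2.70-fold, 1.36 to 5.35, adjusted p = 0.0446). It was also higher in lung (4.21-fold, 1.60 to 11.1, adjusted p = 0.0275), as was Gp5 (1.92-fold, 1.19 to 3.10, adjusted p = 0.0449), and in brain 0 of 10 members passed, against 5.98%. Most of these lungs came from the same embryos as the livers, so the lung result is not from a separate set of animals. The 2 sets also differ in depth, which cannot be told apart from the litters. The liver call fell to 0 without the wild-type liver of litter 2972, 2875, 2970, 2851, 2974 or 2848, and both lung calls without the wild-type lung of litter 2970 or 2851.

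Across the 16 livers, the genes whose pattern was most like the mean of the members' standardized log2 values were Mpig6b (Pearson r = 0.849), the inhibitory platelet receptor G6b-B, then Hbq1a (0.844), Robo3 (0.792), Mrvi1 (0.781) and Prune2 (0.779). Among the members, Ppbp had r = 0.863, Pf4 0.736 and Itga2b 0.706, and Treml1 had the lowest at 0.25. The mean holds the members themselves, so their own values are a description. It was taken over all 10 members and so includes Gp1bb, whose count is not taken as its level. Of the 49 further genes, 4 were among the first 100 of 16555 ranked genes, Mpig6b included. Others were below 0, among them Gata1 (-0.05) and Nfe2 (-0.42). Pairs of the 9 members had a median r of 0.314, with a range of -0.283 to 0.763 over 36 pairs. All points share the 16 libraries and their 2 depths.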

How the data were processed

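RNA of liver, lung and brain was sequenced from embryos at E18.5. Reads were aligned by the authors with STAR 2.6.0b to GRCm38.p6 and summed per gene on GENCODE M19, after FastQC 0.11.5 and Trim Galore 0.6.5 per the submitters' processing notes. The deposited values are raw read counts per gene, with no normalization by the authors, and the strand setting of the counting is not given in the sources used here. Positions were taken from GENCODE M21, where 20424 of 20456 IDs matched.

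Counts were fitted with edgeR 4.0.16 (R 4.3.3), with TMM scaling, filterByExpr at a count of 10 and a total of 15 (16892 genes kept), 1 coefficient for each of 12 groups and the quasi-likelihood test. A gene was called at a Benjamini-Hochberg adjusted p below 0.05. Stringent criteria were an adjusted p below 0.01, a log2 fold change beyond 1 and a standard error below 1. Intervals are 95% intervals from the fit. Replicates within a group are separate embryos, while liver, lung and brain libraries mostly came from the same embryos. No library copied another, with a chi-square of at least 4.09 per degree of freedom in 69 replicate pairs.

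Litter numbers in the sample titles pair mutant and wild-type embryos. Residuals of littermates correlated above 0.1 in 14 of 23 pairs and in 9 of 69 pairs of other embryos.

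Alternatives were DESeq2 1.42.0, RLE size factors, no filter, only the libraries compared, litter as block, the stringent criteria, each library left out, and the livers with squamous transcripts left out (added after seeing the data). Named genes were the 10 members, called genes of the 6 further lists up to 6 per comparison by adjusted p, the 5 genes most like the members in liver, Daxx, markers that moved, and genes sharing exons with a member; exceptions are stated. The members and lists were chosen with earlier results of these data known. Figures were drawn with matplotlib 3.10.9. Transposable elements were not analysed here.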

Additional observations from a re-analysis of the deposited data

Results flagged for a closer look

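In 84 groups of 4 libraries, the gap between the extreme library and its neighbour was set against the whole range of the group, and 5 exceeded the 95% limit, where chance gives about 1 in 20. Itga2b in the wild-type lungs of the S226A litters had 10.7, 10.8, 11 and 14.6 CPM, a gap of 0.910 of the range. The highest library is embryo 9 of litter 2970, whose label is the nearest to the possible outlier that the paper left out. This group enters the S226A lung comparison. Ppbp in S226A lungs had 1.40, 1.40, 1.49 and 2.05 CPM, with a gap of 0.862 of the range. Itga2b in the wild-type brains of the Y130A litters had 1.77 CPM in the lowest and 2.53, 2.64 and 2.68 CPM in the others, a gap of 0.837. Gp1ba in the wild-type livers of the Y130A litters had 3.94, 4.01, 4.48 and 8.66 CPM, a gap of 0.886. Treml1 in Y130A brains had 0.0374, 0.0394, 0.0407 and 0.251 CPM, a gap of 0.985 that rests on 2, 2, 2 and 14 reads.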

How the results depend on the processing

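No member was called in a mutant comparison under any of 773 alternative values, and the lowest adjusted p was 0.0589, for Itga2b in S226A lung without the wild-type replicate 2. By setting, the lowest was 0.0753 with DESeq2, 0.106 with RLE size factors, 0.153 with no filter and 0.347 with only the libraries compared, a setting in which 44 of 60 values were left after its own filter. With litter as replicate block, which follows the pairing by litter, 0 members were called and the lowest adjusted p was 0.0689. The block gave 13 further genes in S226A liver and 5 in S226A lung, and changed no other call by more than 1.5 times. In 54 of the 773, an estimate that was not called changed its sign. With the stringent criteria the further genes went from 11 to 1 in S226A liver and from 5 to 0 in S226A lung, where only the libraries compared also gave 0. Leaving out 1 library gave 8 to 11 in liver and 4 to 13 in lung. For the wild-type litter sets, 1 member in liver became 2 with RLE or DESeq2 and 0 with the stringent criteria, and 0 to 1 with 1 library left out. In lung, 2 became 1 with no filter, 0 with only the libraries compared or the stringent criteria, and 0 to 3 with 1 library left out. In brain, 0 became 1 with only the libraries compared. The cause of these moves was not tested. In brain, Gp1ba and Gp6 had 2 and 3 reads in 8 wild-type libraries, and an estimate from them rests on single reads.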
